A study of Mus musculus with 2 samples.

Results

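The genes described here write, erase and read lysine acetylation of histones. They comprise the histone acetyltransferases and their partner subunits, the histone deacetylases, sirtuins and their corepressor scaffolds, and the BET bromodomain proteins Brd2 and Brd3. They were chosen by gene symbol, with no measured value in the rule, and numbered 49 of the 16803 genes in the deposited table. All 49 reached the minimum of 10 reads summed over the libraries and so were among the 13442 genes tested. The RNA came from NE4C, an established line of mouse neural stem cells, and both conditions shared Eagle MEM as the medium and plates coated with poly-L-lysine. The control was the normal culture, and the other culture was treated with HTL, short for homocysteine thiolactone, a cyclic thioester that cells make from homocysteine and that can modify proteins. Neither its dose nor how long it lasted is given in the labels. Each condition was 1 library, with 10350665 reads assigned to genes in the control and 9102076 in the HTL treatment, so nothing given here was checked in replicates, and each interval and p measures only the counting error of these libraries.

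Acetyl groups on histone tails loosen the contact between histone and DNA and are bound by bromodomains, which bring the transcription machinery to acetylated chromatin. Acetyltransferases work within large complexes whose scaffold and reader subunits choose the sites, and deacetylases likewise act through scaffolds such as SIN3, NCOR and CoREST. The zinc-dependent deacetylases and the NAD-dependent sirtuins are unrelated enzymes that remove acetyl groups by different chemistry. In neural stem cells the class I deacetylases and the CoREST corepressors are known for keeping neuronal genes silent, and p300 and CBP for activating them.

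The labelled cell type was checked first. Of 9 neural stem cell markers, 8 had enough reads to be tested, among them Nes with 1617 control and 1365 HTL treatment reads, while Fabp7 had 2 and 2. Their log2 ratios were above 0 in 4 and below 0 in 4, with Sox2 (894 and 285 reads), Sox1 (48 and 12) and Vim (1487 and 648) called lower by the rule given next and Notch1 (124 and 231) called higher, and the summed level of the 9 was 512 CPM (reads scaled to library size) in the control and 409 CPM in the HTL treatment. Some markers of other lineages were at or near 0, with 2 and 0 reads for the astrocyte gene Gfap, 0 and 1 for the oligodendrocyte gene Mog and 3 and 0 for the microglial gene Aif1, and others were not. The oligodendrocyte gene Mbp had 182 and 186 reads, the astrocyte gene Aldh1l1 (21 and 56) and Thy1 of the fibroblast list (80 and 193) were called higher, and of the neuron genes Tubb3 (296 and 396) and Stmn2 (309 and 403) had log2 ratios of 0.60 and 0.57 while Dcx (88 and 29) was called lower. The summed levels of these marker lists were 2.80 and 6.48 CPM for astrocytes (3 of 5 markers in the table), 18.7 and 20.8 for oligodendrocytes (4 of 5), 2.13 and 2.42 for microglia and blood (3 of 5), 15.9 and 31.1 for fibroblasts (5 of 5) and 82.0 and 103 for neurons (6 of 6). The part of these marker differences in the results was not tested. In RNA from a whole culture, fewer cells of a type and less RNA per cell cannot be told apart.

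Brd2 rose after HTL, while Ncor1, Sirt6 and Hdac9 fell, and these were the 4 members called. A call needed an adjusted p no larger than 0.001 (exact binomial test, two-sided, with Benjamini-Hochberg adjustment over all genes tested) together with a log2 ratio, HTL treatment over control, of size 1 or more. By this rule 10.8% of all genes tested were called, 2.81% higher and 7.98% lower, against 1 member higher and 3 members lower of 49. At a log2 ratio of size 0.5 or more and the same adjusted p, 15 members passed, 6 higher and 9 lower, where 27.1% of all genes passed, 8.9% higher and 18.2% lower. The 6 were Brd2, Sirt1, Sirt3, Brpf1, Sin3b and Hdac1, and the 9 were Sirt6, Ncor1, Hdac9, Kat2b, Kat8, Sap30, Kat5, Ing4 and Ncoa2. The shares of members that passed were thus near the shares of all genes. The median log2 ratio was -0.31 over the members and -0.14 over all genes tested, with 32 members and 58.7% of all genes below 0. In a fit that assumed a biological coefficient of variation of 0.2 between cultures (edgeR's exact test), 0 members reached an adjusted p of 0.001. In that exact test the adjusted p of Brd2, Sirt6, Ncor1 and Hdac9 were 0.018, 0.043, 0.0495 and 0.149. Scaling by trimmed mean of M-values (TMM), upper quartile or median of ratios raised every log2 ratio by 0.14, 0.12 or 0.13. The calls over all genes, 378 higher and 1072 lower, became 559 and 788 with TMM. Under all 3 of these scalings Ncoa2 and Ing4 lay short of 0.5 in size, so the 6 higher and 9 lower hold for library totals only. Brd1 (0.56, 0.54 and 0.55), Hdac3 (0.54, 0.52 and 0.53), Ing3 and Hdac8 lay above 0.5 there, without regard to the adjusted p.

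**Figure D1:**
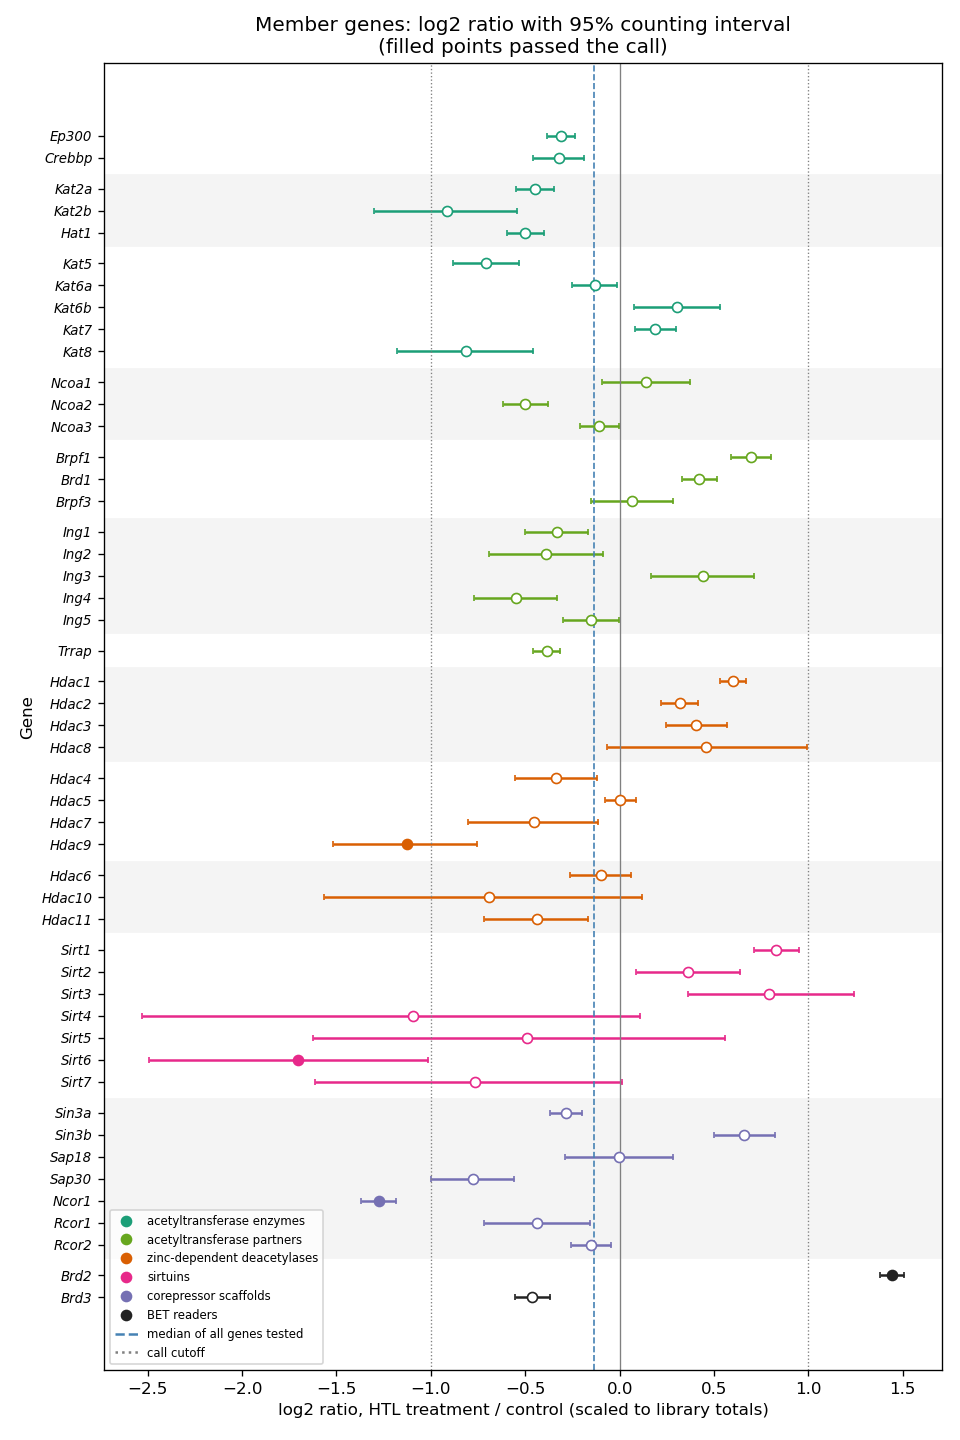
Log2 ratio (HTL treatment over control, scaled to library totals, x axis) of the 49 member genes in order of role (y axis), with bars for the 95% counting interval, filled points for the 4 called genes, a dashed line at the median of all genes tested and dotted lines at the call cutoff. Brd2 stands alone at 1.44 on the right, the called Sirt6, Ncor1 and Hdac9 lie beyond -1 on the left together with Sirt4, which was not called and whose wide bar crosses 0, all 4 class I deacetylases and all 3 BRPF scaffolds have points above 0, and 10 of the 49 intervals hold 0.

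Levels per transcript length (FPKM) ranged from 1.25 to 149.64 over the members in the control and from 0.57 to 226.46 in the HTL treatment. Their median was 17.33 FPKM in the control and 15.35 in the HTL treatment, against 7.13 and 6.14 over all genes tested. By mean reads of the 2 libraries, not divided by length, 26 of 49 were in the upper 3 deciles. Hdac1 held the highest level per length in both libraries, with 149.64 FPKM in the control and 226.46 in the HTL treatment. Behind it in the control came Hat1 (134.13 FPKM), Hdac2 (77.01) and Kat2a (65.71), and in the HTL treatment Brd2 (175.05 FPKM), Hdac2 (95.78) and Hat1 (94.69). The lowest of all members in both libraries was Sirt4, at 1.25 and 0.57 FPKM. Together the members took 0.4997% of all reads in the control and 0.5138% in the HTL treatment.

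**Figure D2:**
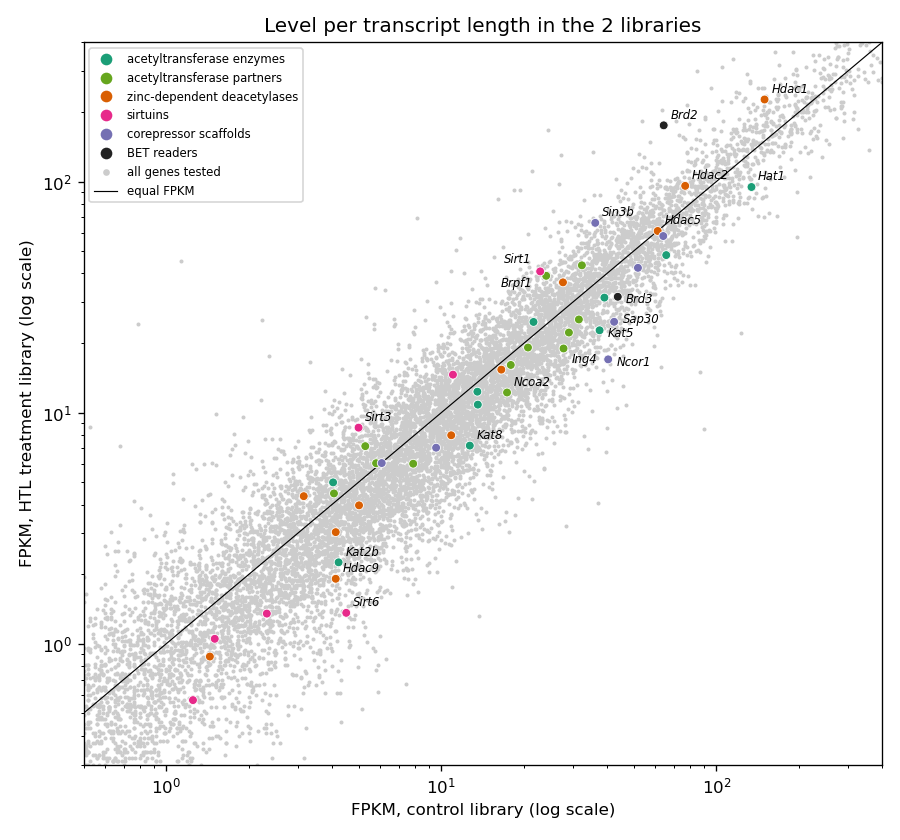
FPKM of each gene in the control library (x axis, log scale) against the HTL treatment library (y axis, log scale), with members in the colour of their role, all genes tested in grey (genes outside the axes are not drawn) and a line of equal FPKM. Brd2 moved from 64.33 to 175.05 FPKM, away from Brd3, which lay below the line at 43.79 and 31.72, and Hdac1 held the highest member level in both libraries.

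The BET proteins Brd2 and Brd3 carry a pair of bromodomains each, bind acetylated histones and promote transcription of the genes they occupy. They moved apart, and their proximal promoters are shown because they are close relatives that went in opposite directions and because Brd2 had the largest rise of all members. Each sequence runs from 250 bases before to 50 bases after the most upstream transcription start listed (RefSeq, build GRCm38.p6, minus strand), 5′ to 3′, with matches to any of 5 searched motifs in capitals: the CCAAT box, the GC box GGGCGG, the TATA element TATAAA, the E-box CACGTG and the cAMP response element TGACGTCA, on both strands. The Brd2 window (chr17:34122558-34122857, the first of 3 starts listed) held 32 CG dinucleotides, 72.33% G and C, and no match. The Brd3 window (chr2:27475349-27475648) held 46 CG dinucleotides, 75% G and C, and 2 matches to GGGCGG.
Brd2: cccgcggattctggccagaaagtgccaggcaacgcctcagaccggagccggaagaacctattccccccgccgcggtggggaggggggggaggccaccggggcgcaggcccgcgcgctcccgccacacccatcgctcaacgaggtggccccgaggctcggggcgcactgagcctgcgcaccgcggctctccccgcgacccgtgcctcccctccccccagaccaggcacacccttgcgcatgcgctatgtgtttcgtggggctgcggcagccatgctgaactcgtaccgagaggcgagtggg
Brd3: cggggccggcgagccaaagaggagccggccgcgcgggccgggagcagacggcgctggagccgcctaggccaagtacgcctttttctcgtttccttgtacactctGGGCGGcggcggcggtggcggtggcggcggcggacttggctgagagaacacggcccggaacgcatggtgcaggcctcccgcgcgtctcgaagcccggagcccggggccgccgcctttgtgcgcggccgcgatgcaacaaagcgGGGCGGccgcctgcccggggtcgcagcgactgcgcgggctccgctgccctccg
No match says only that these letters are not in this window. Of 62 promoters listed for 43 member genes, 72.6% held GGGCGG, against 62.9% of the 13553 promoters of genes tested and 35.7% of all 32851. The median number of CG dinucleotides was 24 in member promoters, 20 in those of genes tested and 7 in all.

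Brd2 (chromosome 17, 34248965 to 34259262 on the minus strand of NCBIM37, protein-coding) had 2962 reads in the control and 7084 in the HTL treatment. That is 286 and 778 CPM, a 2.72-fold rise with a log2 ratio of 1.44 (95% interval 1.38 to 1.51), which ranked 265 of the 13442 genes tested. Brd3 (chromosome 2, 27301099 to 27363182, minus strand) counted 2415 and 1541 reads, for a log2 ratio of -0.46 (-0.56 to -0.37), so its interval lay wholly below 0 while that of Brd2 lay wholly above. The level of Brd2 over that of Brd3 went from 1.47 to 5.52 in FPKM, and the read ratio changed by 1.91 on the log2 scale (1.79 to 2.02), a value that does not depend on how the libraries are scaled. Brd2 accounted for 59.5% of the FPKM of the pair in the control and 84.7% in the HTL treatment. No annotated exon of another gene overlapped Brd2 or Brd3 in the annotation used.

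Of the 10 acetyltransferase enzymes, 8 had log2 ratios below 0 (7 with TMM scaling) and 0 were called, where 58.7% of all genes tested were below 0 and 10.8% were called. Against the median of genes in the same decile of transcript length 5 of the 10 were below, Ep300, Crebbp, Kat6a, Kat6b and Kat7 being above, and the median of the 10 was -0.11 in place of -0.39. Together they had 1258 CPM in the control and 1023 in the HTL treatment, a log2 ratio of -0.30 (-0.34 to -0.26). The closely related coactivators Ep300 and Crebbp, which acetylate histones at enhancers and promoters, had like ratios. Ep300 had 3593 and 2544 reads (347 and 279 CPM) and a log2 ratio of -0.31 (-0.39 to -0.24). Crebbp counted 1068 and 751 reads, for a log2 ratio of -0.32 (-0.46 to -0.19). The read ratio of Ep300 to Crebbp changed by 0.01 on the log2 scale, with an interval of -0.15 to 0.17.

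In the GNAT family and Hat1, all 3 genes had intervals below 0, and their summed level went from 429 to 306 CPM. Kat2a (GCN5) and Kat2b (PCAF) are alternative catalytic subunits of the SAGA and ATAC coactivators, and Hat1 acetylates newly made histones before they are deposited. Hat1 had 2175 and 1353 reads, 134.13 and 94.69 FPKM, and a log2 ratio of -0.50 (-0.60 to -0.40). Kat2a counted 2083 and 1342 reads, for a log2 ratio of -0.45 (-0.55 to -0.35). Kat2b passed the cutoff of 0.5, falling by 0.91 on the log2 scale (interval -1.30 to -0.54), from 187 to 87 reads. The level of Kat2a was 15.5 times that of Kat2b in FPKM in the control and 21.4 times in the HTL treatment.

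The MYST family divided. Kat5 (TIP60), the enzyme of the TIP60 complex, went from 769 to 414 reads and fell by 0.71 on the log2 scale (interval -0.88 to -0.53). Kat8 (MOF), which acetylates histone H4 within the MSL and NSL complexes, went from 196 to 98 reads and fell by 0.81 (interval -1.18 to -0.46). Both of these passed the cutoff of 0.5. The other MYST enzymes lay near or above 0, namely Kat6a with 1294 and 1039 reads and -0.13 (-0.25 to -0.01), Kat6b with 307 and 333 reads and 0.30 (0.07 to 0.53), and Kat7 (HBO1) with 1347 and 1351 reads and 0.19 (0.08 to 0.30). The sign of Kat6a was positive with TMM scaling, and the summed level of the family, 378 and 355 CPM, had a log2 ratio of -0.09 that turned positive under all 3 other scalings. Per length the family sum went from 89.5 to 71.9 FPKM, a log2 ratio of -0.32. As a share of MYST FPKM, Kat5 went from 42.0% to 31.6% and Kat7 from 24.2% to 34.3%, so Kat7 took the place of Kat5 as the MYST gene with the highest level per length. Exons of Rnaseh2c overlap Kat5 on the other strand, and whether strand was used in counting is not given in the sources used here.

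Of the partner subunits of the acetyltransferases, the BRPF scaffolds, which hold Kat6a, Kat6b and Kat7 on chromatin, were above 0 in 3 of 3 genes under all 4 scalings, and their summed level went from 319 to 449 CPM with a log2 ratio of 0.49 (0.43 to 0.56). Brpf1 rose past the cutoff of 0.5, from 1193 to 1699 reads, with a log2 ratio of 0.70 (0.59 to 0.80). Brd1 (BRPF2), the most abundant of the family per length at 32.43 and 43.39 FPKM, counted 1742 and 2054 reads, for a log2 ratio of 0.42 (0.33 to 0.52), and Brpf3 had 362 and 333 reads and 0.06 (-0.15 to 0.28). Brpf1 over Brpf3 went from 4.15 to 6.47 in FPKM, a change of 0.63 on the log2 scale in reads (0.39 to 0.88). Exons of the predicted gene Gm15492 overlap Brpf1 on the other strand.

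The p160 nuclear receptor coactivators, which recruit p300 and CBP to hormone receptors, were not uniform. Ncoa2 fell by 0.50 on the log2 scale (interval -0.62 to -0.38), from 1504 to 935 reads. With TMM, upper quartile and median of ratios scaling its log2 ratio was -0.36, -0.38 and -0.37, and against its length decile -0.12, short of the cutoff of 0.5. Ncoa3, the highest of the family at 20.65 and 19.13 FPKM, counted 1639 and 1338 reads, for a log2 ratio of -0.11 (-0.21 to -0.00), with a positive sign under the other 3 scalings. Ncoa1 had 313 and 303 reads and 0.14 (-0.09 to 0.37). The ING readers, whose PHD fingers bind methylated histone H3 and tether acetyltransferase or deacetylase complexes, were below 0 in 4 of 5 genes. Ing4, a subunit of Kat7 complexes, passed the cutoff of 0.5 and fell by 0.55 (interval -0.77 to -0.33), from 463 to 278 reads, although exons of Acrbp overlap it on the same strand. Its log2 ratio was -0.41, -0.43 and -0.42 with TMM, upper quartile and median of ratios scaling, short of that cutoff. Ing3, a subunit of the TIP60 complex, counted 207 and 247 reads, for a log2 ratio of 0.44 (0.17 to 0.71), whereas Ing1, Ing2 and Ing5 lay between -0.39 and -0.15. Ing1, the highest of them per length at 31.62 and 25.3 FPKM, had 718 and 501 reads and -0.33 (-0.50 to -0.17), and Ing5, with the most reads, had 848 and 672 and -0.15 (-0.30 to -0.00). Trrap, the giant scaffold shared by the SAGA and TIP60 complexes, counted 3811 and 2564 reads, for a log2 ratio of -0.39 (-0.46 to -0.31).

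The class I deacetylases had log2 ratios above 0 in 4 of 4 genes under all 4 scalings. These are the main nuclear histone deacetylases, with Hdac1 and Hdac2 in the SIN3, NuRD and CoREST complexes and Hdac3 in the NCOR complex. Their summed level went from 510 to 720 CPM, a log2 ratio of 0.50 (0.45 to 0.55), and without Hdac1 it was 0.34 (0.26 to 0.43). Hdac1 (chromosome 4, 129193348 to 129219957, minus strand of NCBIM37) went from 3049 to 4066 reads and rose past the cutoff of 0.5 with a log2 ratio of 0.60 (0.53 to 0.67). Hdac2 had 1596 and 1749 reads and 0.32 (0.22 to 0.42), Hdac3 had 574 and 669 reads and 0.41 (0.24 to 0.57), and Hdac8, the class I enzyme known for acting on cohesin, had 57 and 69 reads and 0.46 (-0.07 to 0.99). The interval of Hdac8 held 0, so its difference was not detectable at this depth. Hdac1 over Hdac2 went from 1.94 to 2.36 in FPKM, a change of 0.28 on the log2 scale in reads (0.16 to 0.40).

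Of the other zinc-dependent deacetylases all but Hdac5 had log2 ratios below 0. The class IIa enzymes shuttle between nucleus and cytoplasm and repress targets of MEF2 transcription factors, and they were dominated by Hdac5, with 2443 and 2155 reads, 61.17 and 61.1 FPKM and a log2 ratio of 0.00 (-0.08 to 0.09), or 0.14, 0.12 and 0.13 with TMM, upper quartile and median of ratios scaling. The summed class IIa level likewise had a log2 ratio of -0.11 (-0.19 to -0.04), and of 0.03, 0.0047 and 0.02 under those scalings. Hdac9 (chromosome 12, 34732451 to 35213754, minus strand) was the only called deacetylase of this zinc-dependent kind. It fell from 204 to 82 reads (19.7 to 9.01 CPM), with a log2 ratio of -1.12 (-1.52 to -0.75) and an adjusted p of 2.39e-09 in the exact binomial test. With TMM or median of ratios scaling its log2 ratio was -0.989 and -0.998, and against its length decile -0.92, short of the cutoff of 1 in size. Hdac4 had 426 and 297 reads and -0.33 (-0.55 to -0.12), and Hdac7 had 184 and 118 reads and -0.45 (-0.80 to -0.11). Without Hdac5 the class IIa sum was -0.53 (-0.69 to -0.36). Hdac6, the cytoplasmic tubulin deacetylase, had 703 and 577 reads and -0.10 (-0.26 to 0.06), above 0 under the other 3 scalings. Hdac10, known as a polyamine deacetylase, had 37 and 20 reads and -0.69 (-1.56 to 0.12), and the class IV enzyme Hdac11 had 281 and 182 reads and -0.44 (-0.72 to -0.17). Reads of class I genes over those of all other zinc-dependent genes went from 1.23 to 1.91, a change of 0.63 on the log2 scale (0.55 to 0.71).

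The sirtuins remove acetyl and other acyl groups with NAD as a cosubstrate, in the nucleus (Sirt1, Sirt6 and Sirt7), the cytoplasm (Sirt2) or mitochondria (Sirt3, Sirt4 and Sirt5). Sirt1, which acts on histones and on transcription factors such as p53, and Sirt6, a chromatin enzyme of DNA repair and glucose metabolism, went in opposite directions, so their promoters are shown with the same marking as above (RefSeq, build GRCm38.p6, minus strand). Overlapping matches were counted separately. The Sirt1 window (chr10:63338986-63339285) held 47 CG dinucleotides, 79% G and C, 7 matches to GGGCGG and 2 to CACGTG. The Sirt6 window (chr10:81627517-81627816, the first of 2 starts listed) held 20 CG dinucleotides, 57.33% G and C, and no match. CACGTG was found in 8.06% of member promoters, 9.82% of promoters of genes tested and 7.15% of all.
Sirt1: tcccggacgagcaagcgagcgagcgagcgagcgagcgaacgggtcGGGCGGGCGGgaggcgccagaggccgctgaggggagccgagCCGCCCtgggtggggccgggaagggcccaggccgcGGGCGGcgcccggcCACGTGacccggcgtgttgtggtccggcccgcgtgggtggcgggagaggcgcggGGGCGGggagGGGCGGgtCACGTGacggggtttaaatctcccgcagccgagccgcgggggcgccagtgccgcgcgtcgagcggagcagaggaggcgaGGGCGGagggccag
Sirt6: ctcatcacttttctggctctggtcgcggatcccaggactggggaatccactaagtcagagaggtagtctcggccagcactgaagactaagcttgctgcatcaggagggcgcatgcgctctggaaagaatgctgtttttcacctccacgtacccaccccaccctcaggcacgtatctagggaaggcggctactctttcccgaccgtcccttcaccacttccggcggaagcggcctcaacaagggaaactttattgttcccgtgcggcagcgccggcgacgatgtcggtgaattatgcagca
For the remaining motifs the shares in member promoters, promoters of genes tested and all promoters were 38.7%, 38.1% and 37.4% for CCAAT, 9.68%, 6.89% and 13.6% for TATAAA, and 4.84%, 2.97% and 1.79% for TGACGTCA.

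Sirt1 (chromosome 10, 62781753 to 62844452, minus strand of NCBIM37) went from 933 to 1459 reads and from 22.87 to 40.84 FPKM. It rose past the cutoff of 0.5 with a log2 ratio of 0.83 (0.71 to 0.95), or 1.78-fold. Sirt6 (chromosome 10, 81084530 to 81090542, minus strand) went from 79 to 21 reads and from 4.51 to 1.36 FPKM. It was called lower with a log2 ratio of -1.70 (-2.49 to -1.02) and an adjusted p of 4.26e-07 in the exact binomial test, the largest fall of all members. The interval of Sirt6 is wide, since few reads lie behind it. Exons of the predicted gene Gm16145 overlap Sirt1 on the other strand, and none overlap Sirt6.

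The mitochondrial Sirt3 also rose past the cutoff of 0.5, from 74 to 113 reads with a log2 ratio of 0.79 (0.36 to 1.24), although exons of Ric8 and Psmd13 overlap it on the other strand. Sirt2 had 208 and 235 reads and 0.36 (0.09 to 0.64). The rest were too low to place, with 20 and 8 reads for Sirt4, 21 and 13 for Sirt5 and 41 and 21 for Sirt7, all with log2 ratios below 0 and intervals that held 0. The summed sirtuin level went from 133 to 205 CPM, a log2 ratio of 0.63 (0.53 to 0.73), while the median of the 7 genes was -0.49. Without Sirt1 the sum had a log2 ratio of 0.08 (-0.12 to 0.27). Sirt1 made up 47.2% of sirtuin FPKM in the control and 59.7% in the HTL treatment, and Sirt6 9.30% and 1.99%.

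The corepressor scaffolds were below 0 in 6 of 7 genes and 5 of 7 under the other scalings. Ncor1 (chromosome 11, 62129928 to 62272043, minus strand of NCBIM37), which binds unliganded nuclear receptors and activates Hdac3, fell from 3488 to 1267 reads and from 40.41 to 17.00 FPKM. Its log2 ratio was -1.28 (-1.37 to -1.18), or 0.413 times the control level, with an adjusted p of 1.41e-176 in the exact binomial test. It was -0.90 against the median of its length decile, which ends the call, and with an assumed coefficient of variation of 0.2 the adjusted p in the edgeR exact test was 0.0495. Ncor1 went from 16.1% to 7.68% of the scaffold FPKM and from the 11th to the 23rd highest level of the 49. Its estimated counts were fractional, as were those of Ing5 and Sap18, and exons of Ttc19 and Pigl overlap it on the other strand. Its partner Hdac3 had the log2 ratio of 0.41 given above.

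Sin3b and Sap30, both subunits of SIN3 complexes, moved in opposite directions past the cutoff of 0.5. Sin3b went from 547 to 760 reads with a log2 ratio of 0.66 (0.50 to 0.82), and Sap30 from 513 to 263 reads with -0.78 (-0.998 to -0.56). Sin3a, the paralog of Sin3b, had 2716 and 1962 reads and -0.28 (-0.37 to -0.20). The read ratio of Sin3a to Sin3b changed by -0.94 on the log2 scale (-1.13 to -0.76). In FPKM the ratio went from 1.43 to 0.639, a larger change than in reads, and the deposited FPKM of Sin3b itself moved from 36.27 to 66.24. The deposited length of Sin3b was 1272.78 bases, where its annotated transcripts had 1025 and 4117 bases, so its level per length rests on which transcript the reads were assigned to. Rcor2, the CoREST scaffold with the highest level per length of all scaffolds in the control, had 1613 and 1276 reads, 64.09 and 58.1 FPKM and -0.15 (-0.26 to -0.05), and Rcor1 had 271 and 176 reads and -0.44 (-0.72 to -0.16). Sap18 counted 220 and 193 reads, for a log2 ratio of -0.00 (-0.29 to 0.28), positive under the other 3 scalings. Without Ncor1 the summed scaffold level, 905 and 648 CPM over all 7, had a log2 ratio of -0.16 (-0.22 to -0.10) in place of -0.48 (-0.53 to -0.44). Per length the 7 summed to 251 and 221 FPKM, a log2 ratio of -0.18.

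**Figure D3:**
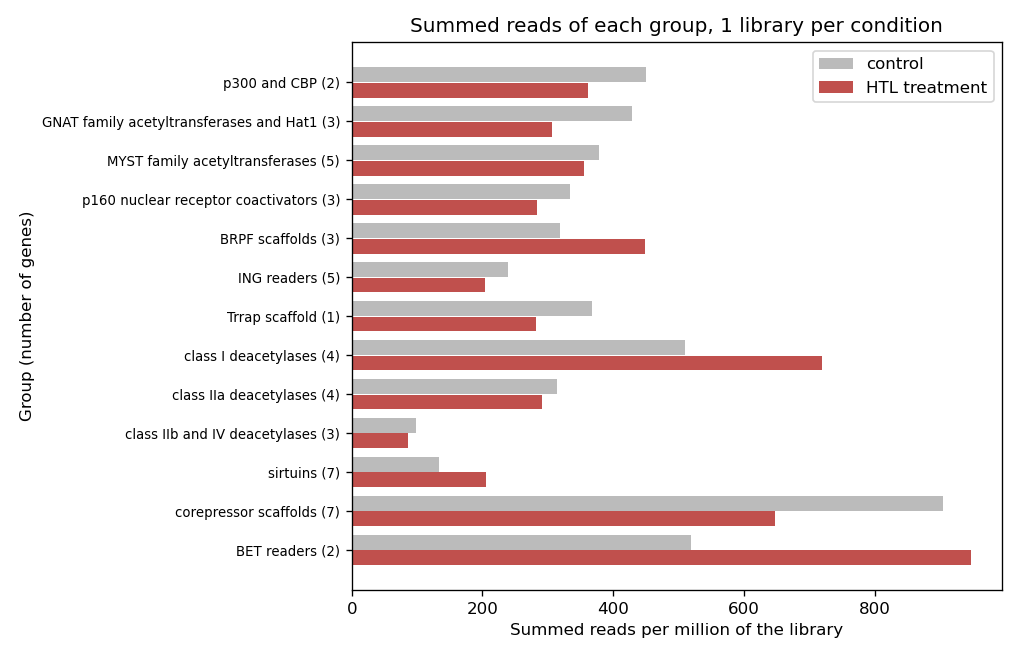
Summed CPM (x axis) for each of the 13 groups of members (y axis, number of genes in brackets), grey bars for the control and red bars for the HTL treatment, with 1 library per condition and so no error bars. The BET readers (519 to 948), class I deacetylases (510 to 720), BRPF scaffolds (319 to 449) and sirtuins (133 to 205) had longer HTL treatment bars, and the bars of the corepressor scaffolds went the other way (905 to 648).

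Set against each other, the reads of the 10 acetyltransferase enzymes were 1.19 times those of the 18 deacetylases and sirtuins in the control and 0.786 times in the HTL treatment. The change was -0.60 on the log2 scale (-0.65 to -0.55) and does not depend on how the libraries are scaled. The 2 sides differ in transcript length, with medians of 5064.84 and 2004.5 bases. Against their length deciles the median log2 ratios of their genes were -0.11 and 0.07, and the part of length in the change was not tested. Reads grow with transcript length, and per length the acetyltransferases were already the lower side in the control, at a summed 346 FPKM against 409, and at 259 against 526 in the HTL treatment. Without Hdac1 the change in reads was -0.47 (-0.53 to -0.41), and without all class I genes -0.39 (-0.46 to -0.32). Both of these kept Sirt1, and the change without Sirt1 was not computed. The summed sirtuin level had a log2 ratio of 0.63 with Sirt1 and 0.08 without it. On the deacetylase side the summed level went from 1056 to 1302 CPM although 10 of the 18 genes were below 0 (9 of 18 under the other scalings), with the larger gains in Hdac1 (295 to 447 CPM) and Sirt1 (90.1 to 160 CPM). The sum over all 49 members had a log2 ratio of 0.04 (0.02 to 0.06), and of 0.18, 0.16 and 0.17 with TMM, upper quartile and median of ratios scaling. Without Brd2 it was -0.11 (-0.13 to -0.09), which the shifts of the other scalings take to about 0.

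The balance within 12 pairs of related members, chosen after values had been seen, is given as a description, with intervals for counting error. Besides those given above, Kat6a to Kat6b changed by -0.43 on the log2 scale, Hdac4 to Hdac5 by -0.34, Ing5 to Ing4 by 0.40, Ncoa3 to Ncoa2 by 0.39 and Kat2a to Kat2b by 0.47. The intervals of Rcor2 to Rcor1 (0.28, -0.02 to 0.59), Ing1 to Ing2 (0.06, -0.29 to 0.40) and Ep300 to Crebbp held 0, which does not show that these pairs kept their balance.

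**Figure D4:**
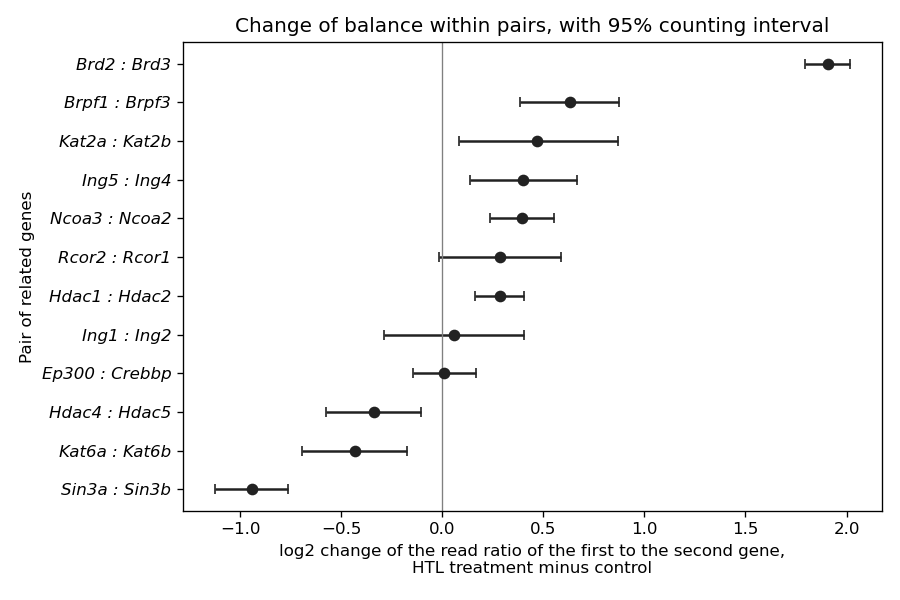
Log2 change of the read ratio of the first to the second gene (HTL treatment minus control, x axis) for 12 pairs of related members (y axis), with bars for the 95% counting interval. Brd2 to Brd3 lies at 1.91 and Sin3a to Sin3b at -0.94, and the bars of 3 pairs cross 0.

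Transcript length moved with the log2 ratio over all genes. The median was 0.14 in the shortest decile of transcripts and -0.38 in the longest, at 6190 bases or more, with Spearman's rho of -0.18 over 13442 genes and 0.12 over the 49 members, all from the same 2 libraries and so not independent. Of the 49 members, 10 were in that longest decile, with a median of -0.32. Measured against the median of its own length decile, 25 members were above and 24 below, and the median difference was 0.04. Ep300, Crebbp and Trrap were at 0.06, 0.06 and -0.01 from the median of their decile. By the same measure Brd2 was at 1.65, Sirt1 at 0.998, Brpf1 at 0.90, Sirt6 at -1.66, Ncor1 at -0.90 and Hdac9 at -0.92, and only Brd2 and Sirt6 then kept an absolute value of at least 1 among those called. The part of length in these differences was not tested.

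**Figure D5:**
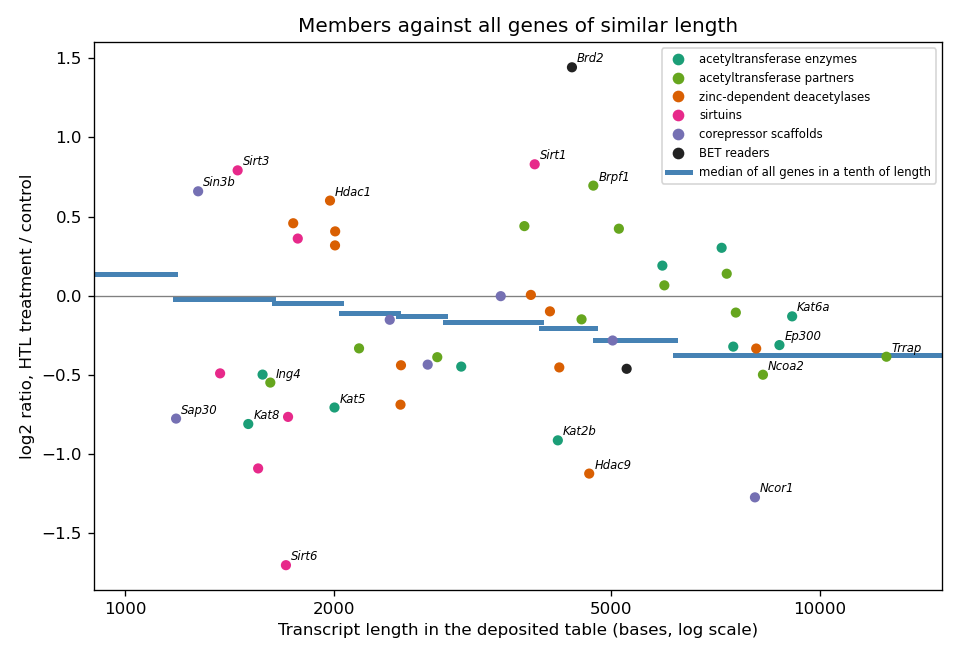
Log2 ratio (HTL treatment over control, y axis) of the 49 members against the transcript length in the deposited table (x axis, bases, log scale), with blue lines at the median of all genes tested in each decile of length. The lines descend from 0.14 to -0.38, Ep300 and Trrap lie close to the line of the longest decile, and Brd2 (1.44) and Sirt6 (-1.70) lie farthest from the lines of their own length.

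Genes of the complexes around the members were counted by 12 lists. None of them had a called rise, and 0 to 3 genes of each were called lower, against 2.81% and 7.98% of all genes. At a log2 ratio of size 0.5 or more, 11 of 22 other bromodomain genes, 5 of 15 TIP60 subunits, 4 of 10 NCOR and CoREST genes, 4 of 22 SAGA and ATAC subunits, 3 of 10 SIN3 genes, 3 of 7 P-TEFb genes and 0 to 2 genes of each remaining list passed lower, where 18.2% of all genes did. Higher there were 2 SAGA and ATAC subunits and 1 MSL and NSL subunit, where 8.9% of all genes passed. These counts and shares hold for library totals. The TMM shift takes some of the lower genes under 0.5 in size, among them the bromodomain genes Zmynd8, Smarca4, Cecr2 and Taf1 and the TIP60 subunit Yeats4. The SAGA and ATAC subunits, which carry Kat2a and Kat2b, had a median log2 ratio of 0.03 over 22 genes with 1 called, the ATAC subunit Mbip (-1.54). The 15 other TIP60 complex subunits had a median of -0.18 and 2 called, Mrgbp (-1.08) and Mbtd1 (-1.01). Of 11 MSL and NSL subunits, partners of Kat8, the median was -0.01 and Ogt, the enzyme that attaches O-linked N-acetylglucosamine, fell from 1914 to 347 reads with a log2 ratio of -2.28. The 3 JADE scaffolds of Kat7 and the 12 NuRD subunits around Hdac1 and Hdac2 had 0 called and medians of -0.18 and -0.01.

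Among the other corepressor subunits, 10 SIN3 genes had a median of -0.19 with Brms1l called (-1.02), and 10 NCOR and CoREST genes had a median of -0.44 with Gps2, an NCOR subunit, falling from 163 to 58 reads (-1.30). Of the 22 other bromodomain genes 20 were below 0, where 58.7% of all genes were, with a median of -0.48 and 3 called, Brwd3 (-1.51), Phip (-1.15) and Bptf (-1.04). The TMM shift turns Trim33, Trim28, Baz1b and Atad2b positive, and takes the median of all genes tested from -0.14 to -0.0008. The 22 bromodomain genes are long, and their median against their own length deciles was -0.16. The 4 YEATS readers, which also bind acetylated histones, were below 0 in 4 of 4 genes and had a median of -0.59 with 0 called, and of 7 genes of P-TEFb and its 7SK partners, which act with BET proteins on paused polymerase, Larp7 fell from 4347 to 1747 reads (-1.13). The others past 0.5 were Ccnt2 (-0.90) and Hexim1 (-0.76), and the summed reads of the 7 had a log2 ratio of -0.62 (-0.67 to -0.56) while their median was 0.06. For the cofactors, 6 genes of acetyl-CoA supply had a median of -0.27 with the acetyl-CoA transporter Slc33a1 called (-1.15). Of these 6 genes 2 were above 0 and 4 below, and their summed reads had a log2 ratio of 0.18 (0.12 to 0.24). The 7 genes of NAD synthesis had a median of -0.16 with 0 called. The other scalings raise each of these medians by their shift, which turns those of the MSL and NSL and the NuRD subunits positive, and the TMM shift takes Mrgbp, Mbtd1, Brms1l, Bptf and Larp7 under the cutoff of 1 in size, which leaves 0 called TIP60 subunits and 2 called bromodomain genes.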

How the data were processed

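Per the labels, total RNA of NE4C was extracted with Trizol and made into Illumina TruSeq libraries, sequenced with BGISEQ protocols, and the submitters' processing notes name the build mm9. The study's methods give alignment to a mouse reference and expression estimates by a program read here as RSEM. The deposited estimated counts were taken as not normalized by the authors, because their totals differ between the libraries and many are fractional, and each column belongs to 1 library. The mapper, annotation release, software versions and use of strand are not given in the sources used here. For the deposited FPKM, the authors divided by transcript length and by the reads of the library. The deposited table also holds the authors' own comparison (log2 ratio, p-value, FDR), which was not used. RSEM divides reads between similar genes, and 21.8% of control and 20.2% of HTL treatment counts were fractional.

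Estimated counts were rounded to whole reads, and genes with fewer than 10 reads over both libraries (3361) were left out. The exact conditional binomial test (scipy 1.17.1, two-sided) set the reads of each gene against the library totals, with Benjamini-Hochberg adjustment over all 13442 genes. It compares 2 libraries, not the conditions. The cutoffs of 0.001 and 1 follow the study's methods. Before log2 ratios were taken, 0.5 read was added in proportion to each total. Intervals are 95% Clopper-Pearson intervals of the HTL treatment share of reads. Since the libraries carried no molecular identifiers, reads may repeat a molecule, and intervals cover counting error only. The quasi-likelihood test of edgeR (4.0.16) and DESeq2 (1.42.0) could not be fitted with 1 library per condition, so edgeR was used for its exact test with an assumed variation and for scaling, and DESeq2 for median of ratios scaling. The binomial test was tested on simulated counts with known fold changes and counting error only. Those counts held no variation between cultures, so they cannot show whether the calls would recur in other cultures. All 49 members were named, with full values for those past 0.5 and the most abundant of each group, and from each other list the largest called rise and fall. The members and lists were chosen with earlier results of these data known, and the 12 pairs, the ratio of acetyltransferase to deacetylase reads, the sums without a leading gene the 4 genes whose promoters are printed, and Mbtd1, Phip, Bptf, Ccnt2, Hexim1 and the named marker genes were chosen after values had been seen.

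Gene coordinates came from GENCODE on NCBIM37 (mm9), where 45 of 49 members matched by symbol. Kat6a, Kat6b, Kat7 and Kat8 did not match. Exons of another gene lay opposite to 12 members and on the same strand for 4. Promoters came from RefSeq on GRCm38.p6 and share no coordinates with these.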

Additional observations from a re-analysis of the deposited data

How the results depend on the processing

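All 4 members stayed called with upper quartile scaling, without the filter, with a mean minimum of 50 reads, with 5 added reads, at an adjusted p cutoff of 0.05 and with variation between cultures assumed at 0.1, and 3 with TMM, median of ratios or the ratio of FPKM + 1, where Hdac9 dropped below the cutoff in size. The number of members called was 15 at an absolute log2 ratio of 0.5, 2 (Brd2 and Sirt6) against the median of their length decile, and 0 with an assumed coefficient of variation of 0.2 or 0.4. Over all genes tested the main 1450 calls became 816 with FPKM + 1, 3638 at a log2 ratio of 0.5, 120 at a coefficient of variation of 0.2 and 6 at 0.4. The median log2 ratio of the members was -0.18 with TMM, -0.20 with upper quartile and -0.18 with median of ratios scaling, -0.15 over the 45 members with a mean of at least 50 reads, and 0.043 against length deciles, where the main value was -0.31. Higher calls were 378 of 1450, and 559 of 1347, 532 of 1352 and 550 of 1357 under the TMM, upper quartile and median of ratios scalings. The cause of these differences was not tested beyond what each alternative changes by construction. No paired analysis was possible because there was a single library per condition, and none could be left out. In 7 members with under 100 control reads the depth limits what can be seen.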
